A study of Rattus norvegicus with 12 samples.

Results

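The genes of the elastic fibre described here are Eln, the fibrillins Fbn1 and Fbn2, the fibulins Fbln1, Fbln2, Fbln5 and Efemp2 (fibulin-4), and the crosslinking enzymes Lox, Loxl1 and Loxl2. They were chosen by name, as 10 of the 33294 genes in the count table, and all 10 passed the filter on low counts in every comparison. The counts come from 12 poly(A) libraries of rat PAC1 cells, a single line of pulmonary artery smooth muscle cells, in 4 groups of 3. Differentiated cells (D1) were passaged once a week at 1:10 and proliferative cells (P) more often and at a higher dilution, both with control siRNA. Differentiated cells were also given Rbpms siRNA (RBPMS KD1) or a mix of Mbnl1 and Mbnl2 siRNAs (MBNL KD), genes for RNA-binding proteins that regulate splicing. All 4 groups were grown in 10% serum and transfected with siRNA on 2 occasions. Every culture was of 1 line. The study's methods describe biological replicates of each condition, while the labels do not say which cultures the libraries came from, so the p-values measure the spread between these libraries and not between lines or animals.

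Elastic fibres give arteries their recoil and are laid down by vascular smooth muscle cells. Tropoelastin, the product of Eln, is deposited on a scaffold of fibrillin microfibrils with the help of fibulins, and enzymes of the lysyl oxidase family then crosslink it into insoluble elastin. Only mRNA was measured here, not the fibre.

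Values below are counts scaled to a common library size with TMM factors (trimmed mean of M values, a scaling that assumes most genes keep their share), given as mean ± SD of 3 libraries. Each comparison was fitted with edgeR to its own 6 libraries, and a gene was called when it passed both a false discovery threshold (adjusted p under 0.05, over all genes tested) and a fold threshold of 2 up or down, which is 1 on the log2 scale. Total counts lay between 80842635 and 90771289 per library. The lowest total was that of MBNL KD replicate 3, whose counts also stood farthest from those of its own group, so MBNL KD values are also given without it. The siRNA targets fell in the libraries labelled for them: Rbpms was at 25.0% of its D1 mean in RBPMS KD1, and in MBNL KD Mbnl1 was at 23.8% and Mbnl2 at 29.6%. Rbpms was also at 6.32% of its D1 mean in P. Smooth muscle markers were detected in all groups, with a summed level of 8660 to 9049 CPM (counts scaled to the library total) in D1, 196 to 206 in P, 4416 to 4534 in RBPMS KD1 and 7236 to 7307 in MBNL KD. All 7 markers were below their D1 means in P and RBPMS KD1, while in MBNL KD Myh11 was at 145% and Cnn1 at 108%.

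In proliferative cells Fbn1 and Fbln5 fell most, Fbln2 rose, and the crosslinking genes moved both ways. Of the 10 genes, 5 were called in P against D1, with Fbln2 higher and Fbn1, Fbn2, Fbln5 and Loxl1 lower, where 27.6% of the 16814 genes tested were called. By the adjusted p alone, 8 of the 10 changed (2 higher, 6 lower), against 77.9% of all genes tested. The 6 lower include Eln, whose sign in P depends on the scaling. The median log2 fold change of the 10 was -0.77, beside 0.02 over all genes tested. The middle values were those of Loxl2 (-0.73) and Fbln1 (-0.80), and Fbln1 had at most 15 counts in these groups. In RBPMS KD1 edgeR called 0 of the 10, as did DESeq2 and limma, at a background of 4.68%, although by the adjusted p alone, and by an unadjusted p under 0.05, 8 changed (5 higher, 3 lower) against 59.1% of all genes. In MBNL KD only Fbln2 was called, at a background of 10.2%, and 8 changed by the adjusted p alone (4 higher, 4 lower) against 67.5%. The median log2 fold changes of the 10 in these knockdowns were 0.24 and -0.05. The 3 comparisons share the D1 libraries and are therefore not independent of each other. In such bulk RNA, fewer expressing cells and less RNA per cell cannot be told apart.

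**Figure D1:**
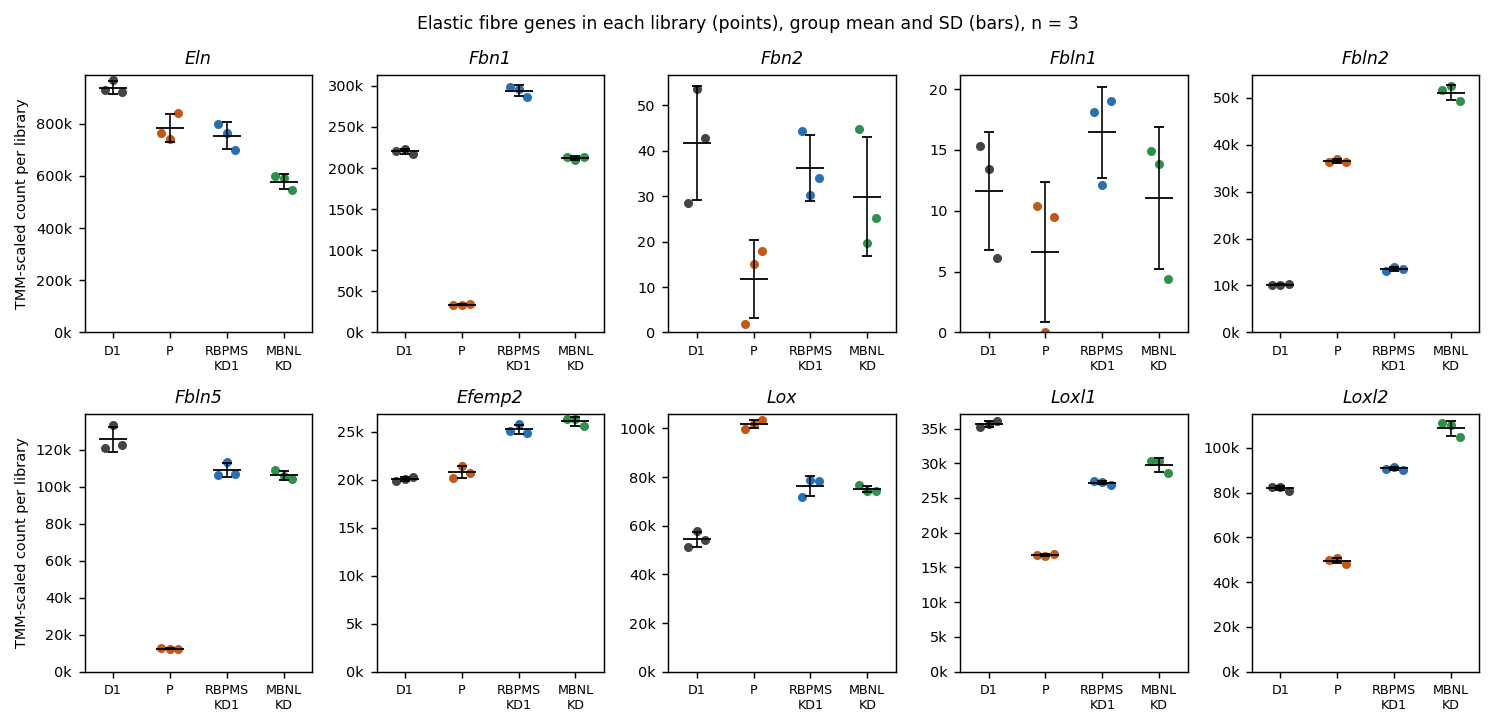
Scaled counts of each elastic fibre gene (vertical axes, linear, 1 panel per gene) in the 12 libraries by group. Points are libraries and bars the mean and SD of 3. Fbn1 and Fbln5 in P lie far below all other groups, and Fbln2 in P and MBNL KD lies above D1 and RBPMS KD1.

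Elastin itself, the elastic core of the fibre, had 928825, 968108 and 920657 scaled counts in the D1 libraries, 765460, 742571 and 843096 in P, 799880, 764566 and 697972 in RBPMS KD1, and 599090, 590468 and 546321 in MBNL KD. All MBNL KD libraries lay below all others, and those of P and RBPMS KD1 overlapped. Eln fell in MBNL KD by 0.70 on the log2 scale (SE 0.022, edgeR adjusted p = 8.9e-22), to 61.6% of the D1 mean, and by 0.66 without MBNL KD replicate 3. It fell in RBPMS KD1 by 0.31 (SE 0.033, edgeR adjusted p = 3.1e-09). In P the fitted change was -0.27 (SE 0.030, edgeR adjusted p = 1.6e-09) with TMM scaling, but quantile normalization turned it to 0.44 and the authors' normalised values to 0.60, and library totals alone gave -0.10. No direction is therefore given for Eln in P. As a share of all counts, Eln took 1.02% ± 0.023 in D1 and 0.948% ± 0.060 in P, which overlapped, 0.825% ± 0.054 in RBPMS KD1 and 0.650% ± 0.029 in MBNL KD (SD, n = 3 each).

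**Figure D2:**
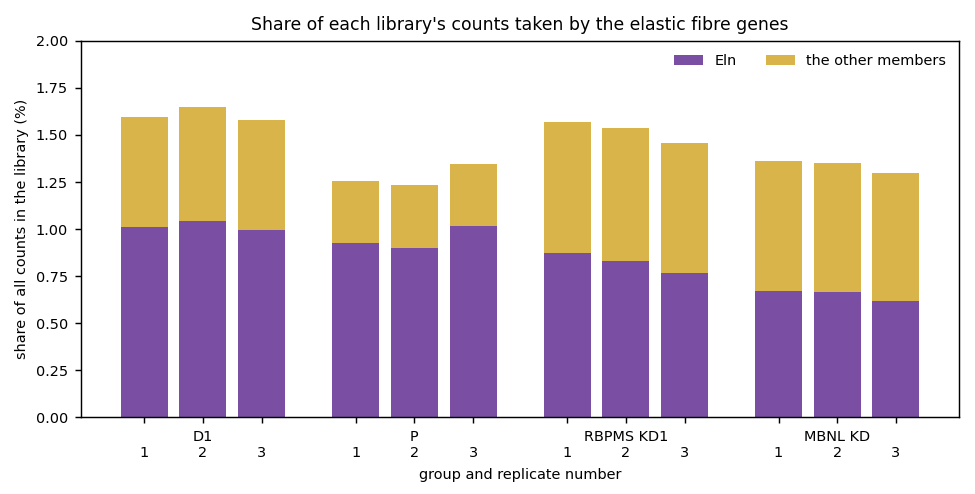
Stacked bars of the share of all counts, in percent, taken by Eln and by the other 9 elastic fibre genes in each of the 12 libraries. The Eln share overlaps between D1 and P and is lowest in MBNL KD, while the other 9 genes are lowest in P.

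The summed share of the other 9 genes was 0.593% ± 0.011 in D1, 0.329% ± 0.0028 in P, 0.696% ± 0.0078 in RBPMS KD1 and 0.684% ± 0.0059 in MBNL KD (SD, n = 3 each). Eln thus made up 63.1% of the counts of the 10 genes in D1, 74.2% in P, 54.2% in RBPMS KD1 and 48.7% in MBNL KD.

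Fbn1 encodes fibrillin-1, the main protein of the microfibril scaffold and the gene mutated in Marfan syndrome. It had 220829, 223341 and 216699 scaled counts in D1 and only 33637, 33779 and 34311 in P. The P libraries held 15.4% of the D1 mean, a fall of 6.52-fold (log2 fold change -2.70, SE 0.024, edgeR adjusted p = 9.8e-40). In RBPMS KD1 the libraries had 298743, 296654 and 286894, all above D1, and Fbn1 was 1.34-fold higher (log2 fold change 0.42, SE 0.025, edgeR adjusted p = 1.4e-14). Fbn1 had 213153, 209619 and 213720 in MBNL KD, a difference from D1 of -0.05 (SE 0.019, edgeR adjusted p = 1.6e-02) that turned to 0.0015 when libraries were scaled by their totals alone and did not pass without MBNL KD replicate 2 (edgeR adjusted p = 0.11). Fbn1 was therefore above D1 in RBPMS KD1 and below it in P. Rbpms was at 25.0% of its D1 mean in RBPMS KD1 and at 6.32% in P, which also differed in passaging. Any part of Rbpms in the level of Fbn1 was not tested.

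Fbn2, fibrillin-2, most used in the developing artery, was near the limit of detection. Its counts were 28, 52 and 42 in D1 and 2, 16 and 19 in P, so that all P libraries lay below all D1 libraries. The fall of 3.55-fold in P (log2 fold change -1.83, 95% interval -2.71 to -0.95, edgeR adjusted p = 3.0e-04) rests on few reads. Limma on the authors' normalised values gave -0.88. In the knockdowns the intervals of the log2 fold change ran from -0.83 to 0.44 (RBPMS KD1) and from -1.17 to 0.23 (MBNL KD), and the counts overlapped with D1. Without MBNL KD replicate 1 the MBNL KD value of Fbn2 was -0.89 (edgeR adjusted p = 0.046).

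The fibulins, which bridge tropoelastin, microfibrils and the cell, moved in both directions. Fbln5, needed for elastic fibre assembly, had 120841, 133360 and 122579 scaled counts in D1 and 12716, 12290 and 12269 in P. This was the largest fall of the 10 genes, 10.1-fold to 9.89% of the D1 mean (log2 fold change -3.34, SE 0.031, edgeR adjusted p = 2.0e-39). In the knockdowns Fbln5 had 106268, 113289 and 107005 (RBPMS KD1) and 108924, 105556 and 104172 (MBNL KD), with all libraries below D1 and the 2 knockdowns overlapping. Fbln5 fell by 0.20 in RBPMS KD1 (SE 0.031, edgeR adjusted p = 1.6e-06), although quantile normalization gave -0.091 and limma on the normalised values -0.089, which did not pass (limma adjusted p = 0.16). Fbln5 fell by 0.24 in MBNL KD (SE 0.028, edgeR adjusted p = 6.9e-09).

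Fbln2, a fibulin of basement membranes and vessel walls, went the other way. It had 10002, 10142 and 10303 scaled counts in D1, 36263, 36972 and 36318 in P, 13108, 13848 and 13411 in RBPMS KD1 and 51547, 52548 and 49248 in MBNL KD. No groups overlapped. Fbln2 rose 5.04-fold in MBNL KD (log2 fold change 2.33, SE 0.028, edgeR adjusted p = 9.1e-32) and 3.59-fold in P (log2 fold change 1.84, SE 0.025, edgeR adjusted p = 8.7e-35), but 1.33-fold in RBPMS KD1 (log2 fold change 0.41, SE 0.027, edgeR adjusted p = 2.3e-13). Without MBNL KD replicate 3 the MBNL KD value was 2.36. It was the only gene of the 10 called in a knockdown.

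Efemp2, which brings lysyl oxidase to tropoelastin, had 19937, 20071 and 20299 scaled counts in D1 and 20183, 21421 and 20750 in P. These overlapped, and the difference was 0.04 (95% interval -0.0091 to 0.10, edgeR adjusted p = 0.12). Other scalings put Efemp2 higher in P and past the adjusted p, with 0.21 for library totals (edgeR adjusted p = 4.8e-09) and 0.16 for quantile normalization (edgeR adjusted p = 8.8e-06), so that its side of the adjusted p threshold in P depends on the scaling, while none of these values reached the fold threshold. Both knockdowns lay above D1, with 25144, 25837 and 24932 in RBPMS KD1 and 26329, 26403 and 25582 in MBNL KD. Efemp2 rose by 0.33 in RBPMS KD1 (SE 0.025, edgeR adjusted p = 2.3e-12) and by 0.38 in MBNL KD (SE 0.025, edgeR adjusted p = 3.5e-14). Fbln1 had at most 19 counts in any library, and 0 in P replicate 2, which allows up to 3 counts there. Its log2 fold change intervals were -2.03 to 0.42 in P, -0.42 to 1.43 in RBPMS KD1 and -1.13 to 1.03 in MBNL KD, so that a change of several fold in P could not be told from none at this depth.

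**Figure D3:**
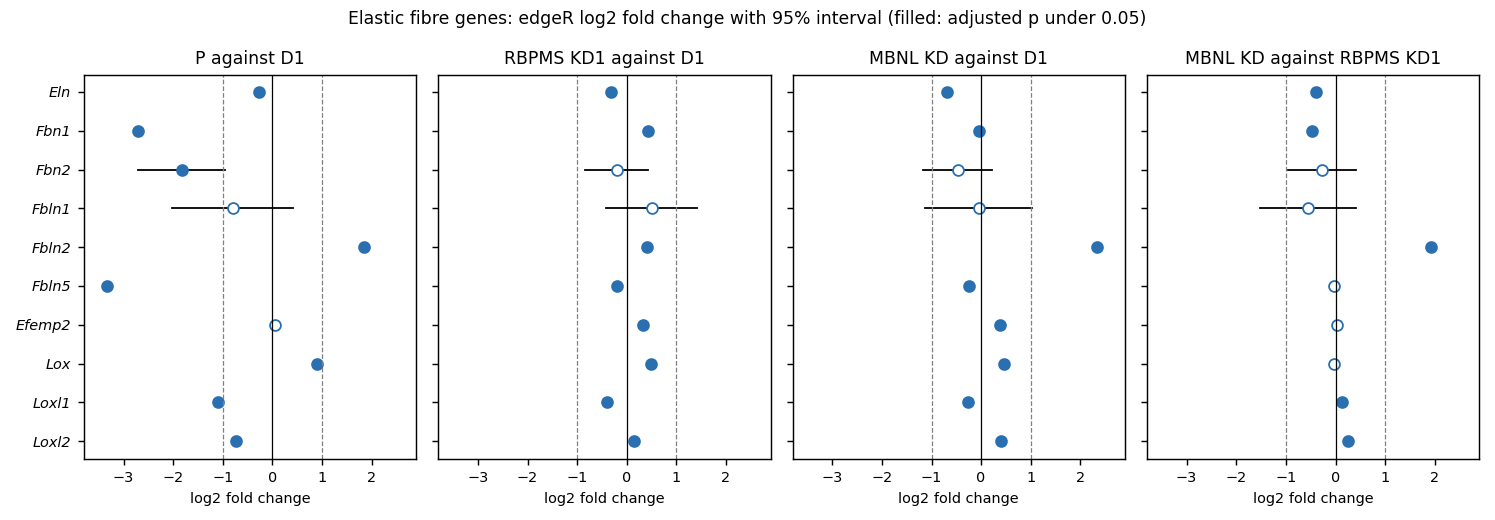
Log2 fold changes (horizontal axes) of the 10 elastic fibre genes in the 3 comparisons with D1 and in MBNL KD against RBPMS KD1, with 95% intervals from edgeR. Filled points have an adjusted p under 0.05, and dashed lines mark the fold threshold. Fbln5 and Fbn1 in P lie farthest below 0 and Fbln2 in MBNL KD and P farthest above; Eln in P is on the TMM scale, and its sign turns under quantile normalization.

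The crosslinking enzymes did not move together in P. Lox, which oxidizes lysines of elastin and collagen, had 51277, 57765 and 53980 scaled counts in D1, 99947, 101727 and 103332 in P, 71779, 78914 and 78415 in RBPMS KD1 and 76643, 74457 and 74138 in MBNL KD. D1 lay below every other library, and the knockdowns overlapped. Lox rose 1.86-fold in P (log2 fold change 0.90, SE 0.029, edgeR adjusted p = 6.1e-24), just short of the fold threshold, which it passed with library totals (1.07), with limma on the authors' normalised values (1.23) and with quantile normalization. The rises were 1.41-fold in RBPMS KD1 (SE of the log2 fold change 0.034, edgeR adjusted p = 6.0e-13) and 1.38-fold in MBNL KD (SE 0.030, edgeR adjusted p = 2.2e-14).

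Loxl1, an enzyme tied to elastic fibre upkeep, had 35155, 35688 and 36116 scaled counts in D1 and 16727, 16585 and 16888 in P. It fell 2.14-fold in P (log2 fold change -1.10, SE 0.024, edgeR adjusted p = 7.3e-29), just past the fold threshold, which it missed with library totals (-0.93), quantile normalization (-0.97) or limma (-0.98). The knockdown libraries lay between D1 and P, at 27405, 27284 and 26937 in RBPMS KD1 and 30253, 30289 and 28538 in MBNL KD. Loxl1 fell by 0.39 in RBPMS KD1 (SE 0.024, edgeR adjusted p = 4.7e-14) and by 0.26 in MBNL KD (SE 0.027, edgeR adjusted p = 6.2e-10). Loxl2, which acts on collagen IV of basement membranes, had 82483, 82590 and 80826 in D1, 49775, 50714 and 48309 in P, 90562, 91586 and 90241 in RBPMS KD1 and 110907, 110254 and 104837 in MBNL KD. The groups were fully separated. Loxl2 fell by 0.73 in P (SE 0.024, edgeR adjusted p = 1.0e-23) and rose by 0.15 in RBPMS KD1 (SE 0.024, edgeR adjusted p = 3.4e-06) and by 0.41 in MBNL KD (SE 0.024, edgeR adjusted p = 2.3e-15). Without MBNL KD replicate 3 the MBNL KD values were -0.058 for Fbn1 (edgeR adjusted p = 0.032), -0.23 for Fbln5 and Loxl1, 0.39 for Efemp2, 0.48 for Lox and 0.43 for Loxl2, and -0.37 for Fbn2 and 0.31 for Fbln1, which did not pass the adjusted p either way.

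Where the knockdowns differed was asked directly, MBNL KD against RBPMS KD1. Only Fbln2 was called, at a background of 11.9%, and 5 of the 10 genes differed by the adjusted p alone against 69.5% of all genes. Fbln2 was 3.79-fold higher in MBNL KD (log2 fold change 1.92, SE 0.030, edgeR adjusted p = 9.0e-30), and 1.94 on the log2 scale without MBNL KD replicate 3. Fbn1 was 1.39-fold lower (log2 fold change -0.48, SE 0.020, edgeR adjusted p = 4.1e-19) and Eln 1.31-fold lower (log2 fold change -0.39, SE 0.030, edgeR adjusted p = 9.9e-13). Loxl2 was higher by 0.25 (edgeR adjusted p = 9.3e-11) and Loxl1 by 0.12 (edgeR adjusted p = 2.5e-04). Without MBNL KD replicate 3 these differences were -0.49 for Fbn1, -0.35 for Eln, 0.27 for Loxl2 and 0.14 for Loxl1. For Fbln5, Efemp2 and Lox the intervals of the difference were narrow, at -0.092 to 0.012, -0.014 to 0.094 and -0.089 to 0.030. Each passed the adjusted p under quantile normalization, at -0.12, 0.088 and 0.096, and Fbln5 and Lox also when 1 library was left out. With 1 library left out Lox lay below 0 (-0.081 to -0.021), on the other side from its value under quantile normalization.

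The stretch before the gene is shown for Fbln5 and Loxl1, as examples of genes called lower in P for which the RefSeq promoter table (GRCr8, not the build of the counts) gave bases outside the annotated gene; Fbn2 also meets this and is not shown. The table held 6 of the 10 genes. Capitals mark matches on either strand to the SMAD box (CAGAC), the GC box (GGGCGG) or the MCAT element (GGAATG).
Fbln5, chr6:126742848-126742956, minus strand: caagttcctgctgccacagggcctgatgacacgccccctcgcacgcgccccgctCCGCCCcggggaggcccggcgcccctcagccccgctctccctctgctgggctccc
Loxl1, chr8:67612225-67612474, minus strand: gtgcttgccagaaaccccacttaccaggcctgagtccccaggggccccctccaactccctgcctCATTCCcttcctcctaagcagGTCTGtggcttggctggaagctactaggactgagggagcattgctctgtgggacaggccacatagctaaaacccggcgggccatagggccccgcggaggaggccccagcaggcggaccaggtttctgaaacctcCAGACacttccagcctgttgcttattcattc
The motifs, chosen with the expression values known, were 6 in all and were searched in windows of 300 bases, all of which reach into the gene. The windows of Fbn1 and Efemp2 lay wholly inside the annotated gene, with their start sites 887 and 665 bases into it. The Fbln5 and Loxl1 windows each held 2 SMAD boxes and 1 MCAT element, and Fbln5 also 1 GC box. The Fbn2 window likewise held 2 SMAD boxes and 1 MCAT element, and that of Fbn1 1 SMAD box. Fbln2, which rose in P, had 1 SMAD box and 3 GC boxes, and Efemp2 5 GC boxes. Of 33469 promoters of that length, 50.1% held a SMAD box, 33.1% a GC box and 14.2% an MCAT element. The AP-1 site (TGANTCA), the CArG box and the TATA box (TATAAA) had no match in the windows of any of the 6 genes, and were in 7.33%, 1.64% and 14.2% of all promoters. A match describes letters, and no binding was measured.

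Other genes of elastic fibre biology were counted from lists of 45 genes, of which 39 could be tested in P, 34 in RBPMS KD1 and 35 in MBNL KD. In P 18 were called (11 higher, 7 lower), where 27.6% of all genes tested were. In RBPMS KD1 6 were called (5 higher, 1 lower), at a background of 4.68%, and in MBNL KD 9 (7 higher, 2 lower), at 10.2%. The 9 became 7 or 8 whichever 1 library was left out. Thsd4 lost its call in MBNL KD without D1 replicate 1 or MBNL KD replicate 2, Adamtsl2 without D1 replicate 1, D1 replicate 3 or MBNL KD replicate 3, Fbln7 without D1 replicate 2 or MBNL KD replicate 1, and Ltbp2, named after its values were seen, without D1 replicate 2. In MBNL KD Emilin3, Loxl4 and Fkbp10 kept their calls under all 17 alternatives run. In RBPMS KD1 Emilin3, Mmp9 and Tll1 lost theirs with limma and in a test against a log2 fold change of 1, and in MBNL KD Mmp9 lost its call with limma. The MBNL KD calls of Fbln7 and Thsd4 were each lost in 6 of 17 alternatives and that of Adamtsl2 in 5. Limma and the test against a log2 fold change of 1 were among these for all of them. The close relatives of the 10 genes that were called were all higher, 4 of 5 tested in P (background 27.6%). Fbln7 rose in P (log2 fold change 4.01), RBPMS KD1 (1.28) and MBNL KD (1.01), and Loxl4 in P (2.54) and MBNL KD (2.11). Efemp1 was called higher in P (2.38) on 12 to 26 counts, a call lost in 4 of 17 alternatives, DESeq2 and limma among them, and Hmcn1 had 0 to 2 counts in D1 and 31 to 67 in P, a call that limma did not give.

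**Figure D4:**
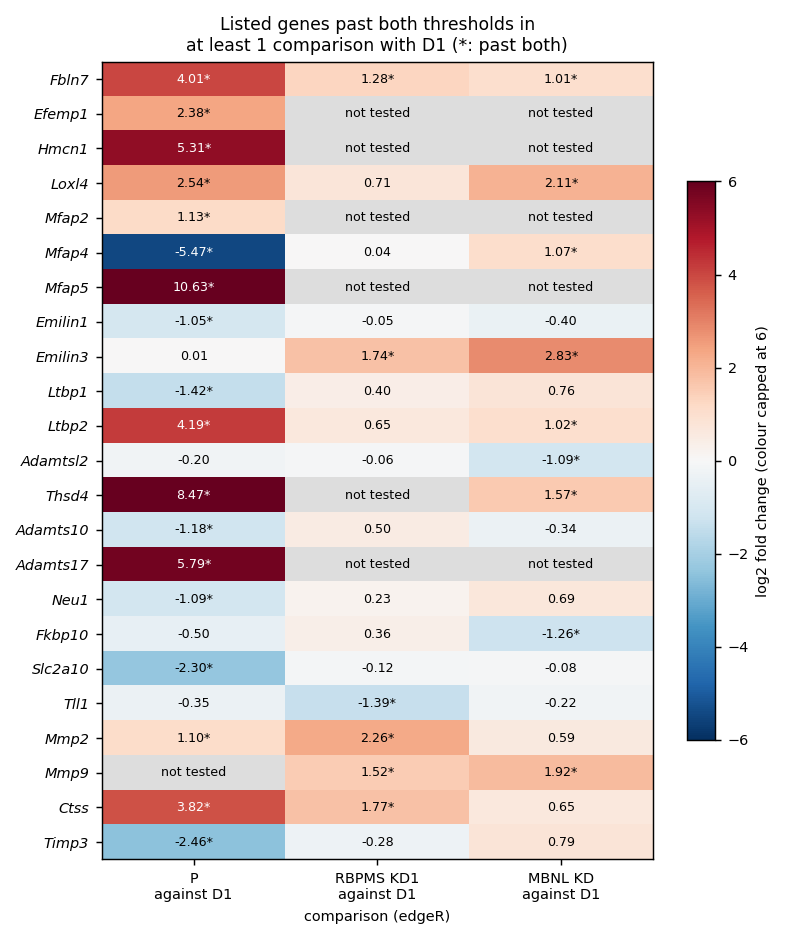
Heat map of log2 fold changes (colour and number) of other elastic fibre genes called in at least 1 comparison with D1. Stars mark calls, and the numbers for Hmcn1, Mfap5 and Adamts17, at 0 to 2 counts in D1, are fitted values and no measure of size. The fibulin and lysyl oxidase relatives shown lie above 0, and microfibril genes lie on both sides in P.

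Microfibril-associated genes went both ways in P, with 5 higher and 4 lower of 17 tested (background 27.6%). Of these, Mfap2, on 6 to 7 counts in D1 and 10 to 20 in P, lost its call in 14 of 17 alternatives, and Emilin1 with library totals, quantile normalization and limma; both are named for these losses alone. Mfap4, a microfibril glycoprotein that binds elastin, fell by 5.47 in P and rose by 1.07 in MBNL KD, where the test against a log2 fold change of 1 did not call it. Mfap5 had 0 counts in every D1 library and 198 to 213 in P, at least 65.2-fold higher against a floor of 3 counts per library. Thsd4 rose in P (8.47, from 2 to 12 counts in D1) and in MBNL KD (1.57), and Adamts17 went from 0 to 2 counts in D1 to 81 to 99 in P. Adamtsl2 fell by 1.09 in MBNL KD, with a value of -0.85 without MBNL KD replicate 3. Its counts overlapped, at 24 to 69 in D1 and 14 to 34 in MBNL KD. Emilin3 rose in RBPMS KD1 (1.74) and MBNL KD (2.83), from 14 to 26 counts in D1 to 70 to 77 and 147 to 161. Among genes that break elastin down or inhibit this, Mmp2, gelatinase A, rose by 2.26 in RBPMS KD1 and 1.10 in P, and Timp3, a metalloproteinase inhibitor, fell by 2.46 in P. Ctss, a lysosomal elastase, rose in P (3.82) and RBPMS KD1 (1.77), and Mmp9, gelatinase B, in RBPMS KD1 (1.52) and MBNL KD (1.92), on at most 60 counts. Fkbp10, a chaperone of tropoelastin, fell by 1.26 in MBNL KD, and Slc2a10, the glucose transporter of arterial tortuosity syndrome, fell by 2.30 in P. Neu1, of the elastin receptor complex, fell by 1.09 in P, a call lost with library totals, and Tll1, a procollagen protease, fell by 1.39 in RBPMS KD1, from 42 to 43 counts in D1 to 11 to 22. Without MBNL KD replicate 3 the MBNL KD values of Fbln7, Loxl4, Mfap4, Thsd4, Emilin3, Mmp9 and Fkbp10 were 1.05, 2.09, 1.09, 1.66, 2.80, 1.99 and -1.23. Among the calls named here the largest edgeR adjusted p was 0.034, for Mfap2 in P. The next was 0.010, for Thsd4 in MBNL KD.

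Markers of other cell types and of cycling cells also differed between groups, and the members of a list did not always move together. Fibroblast markers summed to 145 to 154 CPM in D1, 209 to 219 in P, 130 to 136 in RBPMS KD1 and 95.7 to 102 in MBNL KD. Most of each sum was Lum. In RBPMS KD1 Lum was at 76.8% of its D1 mean while Pdgfra was at 188%, Dcn at 163%, Dpt at 159% and Pi16 at 114%. In P Lum was at 125%, Dcn at 166% and Pi16 at 180%, while Pdgfra was at 82.0% and Dpt at 72.2%. In MBNL KD Lum was at 63.6%, Dcn at 42.3%, Dpt at 23.9% and Pi16 at 91.1%, and Pdgfra at 116%. Cycling markers summed to 620 to 642 CPM in D1, 851 to 886 in P, 500 to 526 in RBPMS KD1 and 390 to 393 in MBNL KD. All 5 markers of each of these lists were over the floor of 3 counts in every library. Endothelial markers summed to 0.716 to 0.787 CPM in D1, 5.84 to 7.28 in P, 1.76 to 1.80 in RBPMS KD1 (Tek and Vwf called higher, by 1.32 and 1.22) and 0.940 to 1.41 in MBNL KD, with Cdh5 and Kdr at 0 in all groups but P, and leukocyte markers to at most 1.77 CPM in any library, with Ptprc at 0 in D1 and MBNL KD. Csf1r was called higher in MBNL KD (247% of its D1 mean, on 52 to 62 counts against 19 to 26), Cd3e in P (1.80, on 16 to 22 counts against 2 to 8), and Tek (3.71), Vwf (247% of its D1 mean), Cdh5 and Krt8 (1.17) in P. Dcn, Dpt, Aurkb and Ccnb1 were called lower in MBNL KD. Epithelial markers summed to 34.3 to 35.8 CPM in D1, 85.8 to 89.7 in P, 37.5 to 40.4 in RBPMS KD1 and 53.5 to 54.7 in MBNL KD, mostly Krt8, and Epcam was at 0 in all groups but P. Whether these markers reflect other cells in the cultures, and any part of such cells in the results, was not tested.

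The genes nearest in pattern were found among 12647 genes by the distance between their 3 log2 ratios to D1. For Eln these were Tesk1 (distance 0.068), Tsnax (0.072) and Cenpt (0.076) on TMM-scaled counts. On the authors' normalised values, where the sign of Eln in P turns, Tesk1 was at 0.89, Tsnax at 0.80 and Cenpt at 0.92, so that these neighbours depend on the scaling. For Lox, on TMM-scaled counts, they were Kdm1b (0.073), Dalrd3 (0.11) and Cdkl3 (0.12), and for Fbn1 they were Fam83h (0.20), Cpe (0.23) and Spry4 (0.26).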

How the data were processed

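The authors subsampled reads to a common number (55 M) per library, aligned them with STAR 2.7.11b to mRatBN7.2 and deposited counts per gene symbol. Strand setting and counting of mates are not given in the sources used here; an even count was 2.39 to 2.73 times as frequent as the neighbouring odd counts. The authors also deposited a normalised table, signal values after noise correction and quantile normalization, used here for 1 alternative. Groups came from the labels. The labels and the study's methods give different transfection times and cell numbers.

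Counts were analysed in R 4.3.3 with edgeR 4.0.16 (filterByExpr, TMM, quasi-likelihood F test, Benjamini-Hochberg over all genes tested), limma 3.58.1 and DESeq2 1.42.0, and tested on simulated data, where 100 of 100 changes of 4-fold were called in each comparison, 0 of 100 changes below the fold threshold were, and 2 unchanged genes were called for MBNL KD against D1 (0 elsewhere). Named genes were the 10 members, from each list at most the 4 largest called changes per comparison, the siRNA targets, and the 3 nearest genes for Eln, Lox and Fbn1. Members and lists were chosen with earlier results of these data known. Of 45 listed genes, 44 were in the count table. Genes overlapping Eln, Fbn1 and Fbln1 had at most 183, 6 and 4 counts. The intervals of log2 fold changes include the spread between libraries, and the floor of 3 counts covers counting error only. The genes nearest to Eln on the normalised values are not reported here.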

Additional observations from a re-analysis of the deposited data

How the results depend on the processing

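Of 670 member log2 fold changes under 23 alternative settings, 651 kept their direction and their side of the thresholds, 12 turned, 3 passed and 4 lost the thresholds. Eln in P turned to 0.44 with quantile normalization and 0.60 with limma on the normalised values; the former gives each gene a value by its rank, and Eln ranked 5 in D1 and 3 in P. With library totals only, Fbn1 (0.0015) and Fbln1 (0.0033) turned in MBNL KD, and between the knockdowns Fbln5 (0.0029) and Lox (0.014), Lox also with quantile normalization (0.096) and limma (0.098). Library totals moved the median of all genes in P by 0.17. Leaving out 1 library gave -0.36 to 0.31 for Fbln1 in MBNL KD, above 0 without D1 replicate 1 (0.19), D1 replicate 2 (0.055) or MBNL KD replicate 3 (0.31), and -0.41 to 0.023 for Fbn2 in RBPMS KD1, above 0 without D1 replicate 2. The causes were not tested. The members called stayed at 5, 0, 1 and 1 when any 1 library was left out. Of the other elastic fibre genes, limma called 3 in RBPMS KD1 (6 in the edgeR fit), 5 in MBNL KD (9) and 5 between the knockdowns (10), and a test against a log2 fold change of 1 called 3, 4 and 3. In the replicate block fit the members called were again 5, 0, 1 and 1, and the other genes 17, 6, 9 and 9; same-numbered libraries share only a number, with correlations of deviations from -0.022 to 0.027. Halving the counts, and the distances from Eln on the normalised values, were chosen after seeing the data. Fbn2 and Fbln1 are limited by depth.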

Other observations

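The genes nearest in pattern to Fbln2 and Fbln5, named after their values were seen, were Runx2 (distance 0.45), Hsd11b1 (0.55) and Col4a3 (0.57) for Fbln2, and Dmrt3 (0.16) and Mmp16 (0.18) for Fbln5. Ltbp2, a fibulin-5 binding protein of the microfibril, also chosen after its values were seen, rose by 4.19 on the log2 scale in P and by 1.02 in MBNL KD.

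In the authors' normalised table Eln had the value 864919 in all 3 D1 libraries and 648495 in all 3 RBPMS KD1 libraries, because the table gives each gene a value by its rank; this hides the spread between replicates for Eln.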
